A study of Homo sapiens with 6 samples.

Results

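The 10 genes described here regulate mitogen-activated protein (MAP) kinases, and they were taken by symbol from the 38637 genes of the deposited expression table. They are the phosphatase genes DUSP1, DUSP4, DUSP5, DUSP6, DUSP10, DUSP14 and DUSP16, the MAP kinase kinase genes MAP2K3 and MAP2K6, and the upstream kinase gene MAP3K8. The selection was made with their difference between the treatments already known, so the values of these 10 genes in that comparison are a description and carry no p-value. The libraries came from polyA RNA of OVCAR8, a human ovarian cancer cell line that the labels give as wild type. One group of 3 samples received DMSO, the solvent, and another group of 3 received 2 nM pladienolide B, in each case for 72 h. Pladienolide B is a small molecule that binds the SF3B1 subunit of the spliceosome and inhibits pre-mRNA splicing. No other dose or time was analysed here, and nothing in the labels says whether the 3 samples of a group came from separate cultures, so the spread between them may be technical.

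MAP kinases are switched on by a cascade in which a MAP3K phosphorylates a MAP2K and the MAP2K phosphorylates both a threonine and a tyrosine of the MAP kinase. Dual-specificity phosphatases of the MAP kinase phosphatase family remove both of these phosphates and so end the signal in ERK, JNK or p38. Several of their genes, DUSP1, DUSP4, DUSP5 and DUSP6 among them, are known as feedback genes whose transcription is induced by the MAP kinases that they inactivate, and the ERK branch is commonly active in epithelial cancer cells.

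The 250 bases before the annotated start were available for 8 of the 10 genes, in RefSeq's GRCh38.p14 sequence. DUSP4 and DUSP5 had no entry. These windows were searched on both strands for the cyclic AMP response element core TGACGT, the AP-1 element TGANTCA, the E-box CACGTG, the ETS element CCGGAAG and the TATA box TATAAA. The windows of DUSP1, MAP2K3 and DUSP6 are shown because DUSP1 had the highest level of the 10 genes, MAP2K3 had the highest fold change of the 10 after DUSP4, and DUSP6 was also at least 2-fold higher in pladienolide B with none of the 5 motifs. Matches are in capitals, written on the strand of the gene.
DUSP1, chr5:172771196.0-172771445.0, minus strand: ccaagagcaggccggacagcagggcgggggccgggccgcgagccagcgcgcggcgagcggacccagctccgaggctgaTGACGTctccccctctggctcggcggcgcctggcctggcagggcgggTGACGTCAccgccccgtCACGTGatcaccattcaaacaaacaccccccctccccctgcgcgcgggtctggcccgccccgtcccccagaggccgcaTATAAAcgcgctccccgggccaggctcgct
MAP2K3, chr17:21284461.0-21284678.0, plus strand: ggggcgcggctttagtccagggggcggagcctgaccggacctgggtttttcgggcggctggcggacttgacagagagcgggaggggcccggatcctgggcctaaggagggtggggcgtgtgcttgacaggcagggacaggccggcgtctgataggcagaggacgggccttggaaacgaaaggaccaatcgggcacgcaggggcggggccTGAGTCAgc
DUSP6, chr12:89352502.0-89352751.0, minus strand: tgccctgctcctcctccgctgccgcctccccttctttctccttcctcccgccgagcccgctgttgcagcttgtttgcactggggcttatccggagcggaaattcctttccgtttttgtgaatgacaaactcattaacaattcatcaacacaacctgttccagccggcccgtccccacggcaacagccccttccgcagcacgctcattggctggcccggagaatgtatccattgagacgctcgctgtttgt
In the DUSP1 window the capitals mark a cyclic AMP response element core starting 172 bases before the annotated start, a pair of overlapping cores, one on each strand, starting 125 and 123 bases before it, an E-box 108 bases before it and a TATA box 30 bases before it. In the MAP2K3 window, shown up to the base before the deposited gene, they mark an AP-1 element 41 bases before the start. Among the 8 genes with a window, the cyclic AMP response element core was found in 1 (DUSP1) and in 7.10% of all 35116 windows of the table. The AP-1 element was found in 2, MAP2K3 and MAP3K8, and in 6.57% of all windows. The E-box was found in 1 (DUSP1) and in 6.34% of all windows, the TATA box in 2 (DUSP1 and MAP2K6) and in 10.7% of all windows, and the ETS element in 0 and in 8.52% of all windows. The 8 genes had 13 windows between them because some have several annotated starts, and MAP2K3 has another start whose window held no match. By window, the core, the AP-1 element, the E-box, the TATA box and the ETS element were in 1, 2, 1, 2 and 0 of these 13. The MAP2K6 matches to the TATA letters were on the opposite strand, 200 and 164 bases before a start inside the deposited gene. Its window directly before the deposited gene held no match. MAP3K8 held the AP-1 letters before only 1 of its starts, 51 bases before it and inside the deposited gene. The MAP3K8 window directly before the deposited gene held no match. MAP2K3 and MAP3K8 differed between the treatments in opposite directions, and a relation of motifs to change was not tested.

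The values are reads adjusted for library size, and the 6 samples had 22621338 to 26130882 recovered reads on genes. DMSO replicate 2 stood apart from the other DMSO samples, with a chi-square per degree of freedom of 7.34 and 7.25 against them, where counting alone gives 1, against 2.01 between DMSO replicates 1 and 3. It was the DMSO sample nearest to the pladienolide B mean for 6 of the 10 genes (DUSP1, DUSP4, DUSP5, DUSP6, MAP2K3 and MAP3K8) and for 37.2% of all genes tested, so the fold changes of the 10 genes are also given without it. Of 10 epithelial markers, PAX8, KRT7, KRT8, KRT18, EPCAM and MSLN had at least 431 adjusted reads in every sample, while WT1, MUC16, SOX17 and EMX2 were at most 33.8, 22.8, 12.8 and 3.01. KRT7 and MSLN fell (log2 fold changes -0.64 and -0.44, limma, adjusted p = 7.7e-06 and 4.5e-07) and KRT8 and KRT18 rose (0.27 and 0.29, limma, adjusted p = 8.4e-04 and 9.6e-04). Summed epithelial markers were 80762.5 to 86652.4 in DMSO against 81205.0 to 96574.3 in pladienolide B. Summed leukocyte markers, nearly all CD68, were 1134.8 to 1292.2 in DMSO against 1533.1 to 1628.8 in pladienolide B, while PTPRC, the defining leukocyte marker, was at most 2.00 and CD3E was at 0 in every sample. Summed fibroblast markers were 6967.6 to 7149.9 in DMSO against 5905.9 to 6576.0 in pladienolide B, mostly COL1A1, with DCN at most 2.07, and summed endothelial markers were 45.8 to 71.5 and 59.7 to 90.2. In bulk RNA, a change in the share of cells that express a gene and a change in RNA per cell cannot be told apart.

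All 10 genes were among the 16178 kept for testing, which needed roughly 10 adjusted reads in 3 or more samples. The 3 samples of a group lay wholly apart from the 3 of the other for 7 of them, 5 higher and 2 lower in pladienolide B. Among all 16178 genes the groups lay apart for 55.3%, 26.4% higher and 28.8% lower, and nothing is read from the count of 7, since these genes were chosen on this comparison. Of the 10, 4 were at least 2-fold higher (DUSP4, DUSP5, DUSP6 and MAP2K3) and 0 at least 2-fold lower, where 2.08% of all genes were 2-fold higher and 2.05% 2-fold lower. Their median log2 fold change was 0.28, and that of all genes tested was -0.004. Nothing is read from the 2-fold counts or the median either, since the choice of genes was made on this comparison.

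**Figure D1:**
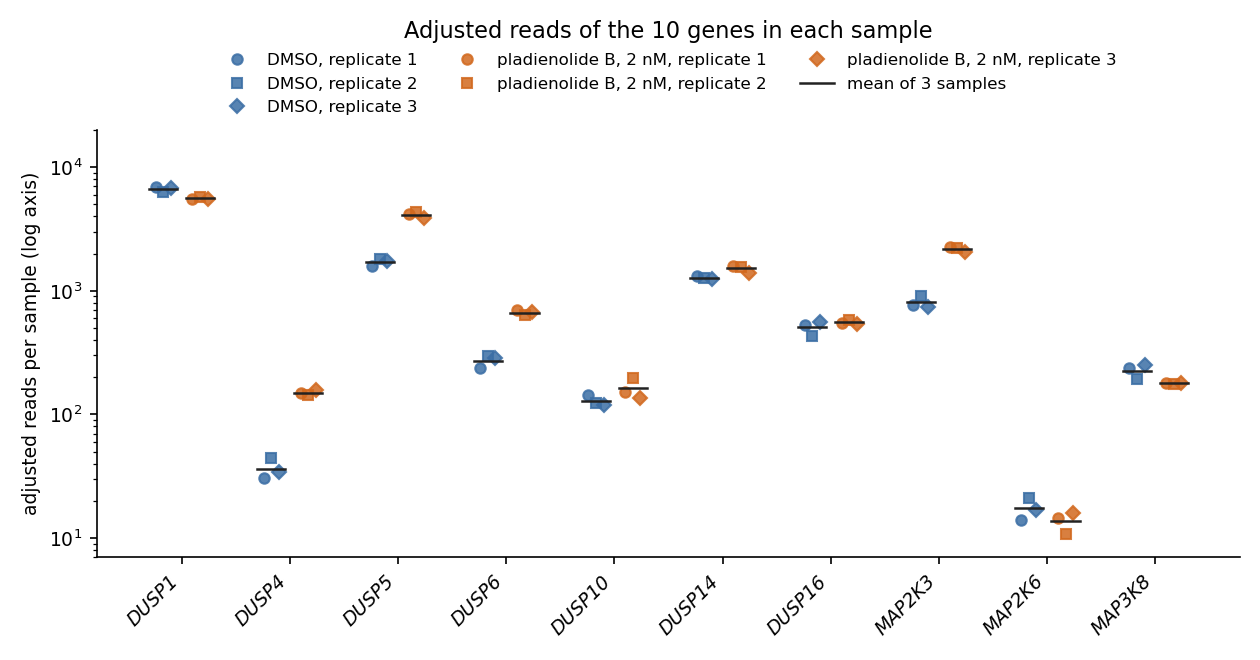
Adjusted reads (log axis) of each of the 10 genes in the 3 DMSO samples (blue) and the 3 samples given 2 nM pladienolide B for 72 h (orange), with replicates 1, 2 and 3 as circles, squares and diamonds and the mean of 3 samples as a line. The groups are widely apart for DUSP4, DUSP5, DUSP6 and MAP2K3, narrowly apart for DUSP1, DUSP14 and MAP3K8, and overlap for DUSP10, DUSP16 and MAP2K6.

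The nuclear phosphatases DUSP4 and DUSP5 and the cytoplasmic DUSP6 were all at least 2-fold higher in pladienolide B, while DUSP1, the most abundant of the phosphatases, was lower. DUSP4, also called MKP2, inactivates ERK, JNK and p38 in the nucleus. It measured 30.9, 44.3 and 34.0 adjusted reads in DMSO replicates 1, 2 and 3 and 149, 143 and 157 in pladienolide B replicates 1, 2 and 3. The lowest pladienolide B sample was above the highest DMSO sample by more than the whole spread within either group. The means were 36.4 ± 7.03 and 150 ± 7.10 (SD, n = 3 each), a 4.12-fold difference and the highest fold among the 10 genes, with a log2 fold change of 2.03 (SE 0.18) on the scale log2(value + 1), whose added 1 makes fold changes smaller where reads are few. Without DMSO replicate 2 the log2 fold change was 2.17. DUSP4 was nevertheless the MAP kinase phosphatase with the lowest level in both groups: 0.204 ± 0.0394 in DMSO and 0.841 ± 0.0399 in pladienolide B (SD, n = 3 each) as a level per length, that is, adjusted reads per kilobase of exon scaled to library size as in RPKM, which allows genes to be compared with each other. It had 113 recovered reads over the 3 DMSO samples and 434 over the 3 treated samples.

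DUSP5 is a nuclear phosphatase that acts on ERK and also holds it in the nucleus. It measured 1588, 1824 and 1726 adjusted reads in the DMSO samples and 4160, 4303 and 3861 in the pladienolide B samples. Each treated sample was above 2 times each DMSO sample. The means were 1713 ± 119 and 4108 ± 226 (SD, n = 3 each), a 2.40-fold difference with a log2 fold change of 1.26 (SE 0.06), or 1.31 without DMSO replicate 2. DUSP5P1, a pseudogene of DUSP5, and the divergent transcript DUSP5-DT are listed as separate genes of the same table. DUSP5P1 fell, from 41 to 60 recovered reads in DMSO to 17 to 36 in pladienolide B, with a log2 fold change of -0.75 (SE 0.28, limma, adjusted p = 0.033). Reads of DUSP5 and its pseudogene could be assigned to either, but the pseudogene's reads were few beside those of DUSP5. DUSP5-DT had 11 to 24 recovered reads in DMSO against 23 to 24 in pladienolide B (log2 fold change 0.62, SE 0.32, limma, adjusted p = 0.12).

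DUSP6, or MKP3, is a cytoplasmic phosphatase selective for ERK and a common readout of ERK activity at the RNA level. Its adjusted reads were 236, 295 and 287 in DMSO and 694, 636 and 668 in pladienolide B. The groups were far apart, with every treated sample above 2 times every DMSO sample. The means were 273 ± 32.2 and 666 ± 29.3 (SD, n = 3 each), a 2.44-fold difference with a log2 fold change of 1.29 (SE 0.09), or 1.35 without DMSO replicate 2.

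DUSP1, or MKP1, is the immediate-early nuclear phosphatase that inactivates p38 and JNK as well as ERK. It measured 6888, 6250 and 6831 adjusted reads in DMSO and 5487, 5714 and 5570 in pladienolide B. All treated samples were below all DMSO samples, with DMSO replicate 2 the nearest to them. The means were 6656 ± 353 and 5590 ± 115 (SD, n = 3 each), so that pladienolide B samples held 84.0% of the DMSO level, with a log2 fold change of -0.25 (SE 0.04), or -0.30 without DMSO replicate 2. Its fold change stood at the 24.9th percentile of all genes tested, where DUSP4 stood at 99.6 and DUSP5 and DUSP6 at 98.9.

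The phosphatases selective for JNK and p38 had groups that overlapped. DUSP10, or MKP5, measured 143, 124 and 120 adjusted reads in DMSO and 151, 199 and 137 in pladienolide B. Treated replicate 3 lay among the DMSO samples, and treated replicate 2 alone was far above the rest. Its log2 fold change of 0.32 (SE 0.15) ranged from 0.16 to 0.43 when each sample was left out in turn, with 0.29 without DMSO replicate 2. DUSP16, or MKP7, measured 525, 432 and 558 adjusted reads in DMSO and 550, 576 and 543 in pladienolide B. These groups also overlapped, DMSO replicate 2 being the lowest sample, and the log2 fold change of 0.15 (SE 0.09) came to 0.04 without it. A gene of the opposite strand, LOC107984485, overlaps DUSP16 and had 22.0 to 36.1 adjusted reads. Whether reads were assigned by strand is not given in the sources used here.

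DUSP14, or MKP6, is a small atypical dual-specificity phosphatase that lacks the MAP kinase binding domain of the family above and is known as a negative regulator of T cell receptor signalling. It measured 1310, 1279 and 1251 adjusted reads in DMSO and 1591, 1552 and 1404 in pladienolide B. The treated samples were all above the DMSO samples, treated replicate 3 by the least. The means were 1280 ± 29.2 and 1516 ± 98.7 (SD, n = 3 each), a 1.18-fold difference with a log2 fold change of 0.24 (SE 0.06), the same without DMSO replicate 2.

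Of the kinase genes, MAP2K3 was higher in pladienolide B, MAP3K8 was slightly lower and MAP2K6 had few reads in either group. MAP2K3, or MKK3, phosphorylates and activates p38. It measured 774, 911 and 737 adjusted reads in DMSO and 2262, 2208 and 2046 in pladienolide B, with every treated sample above 2 times every DMSO sample. The means were 807 ± 91.9 and 2172 ± 112 (SD, n = 3 each), a 2.69-fold difference with a log2 fold change of 1.43 (SE 0.07), or 1.52 without DMSO replicate 2, at the 99.2th percentile of all genes tested.

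MAP2K6, or MKK6, is the other dedicated activator of p38. Its adjusted reads were 14.0, 21.2 and 17.0 in DMSO and 14.6, 10.8 and 16.0 in pladienolide B. The groups overlapped, and with 54 recovered reads over the 3 DMSO samples and 40 over the 3 treated samples a difference was not detectable at this depth (log2 fold change -0.31, SE 0.34, from -0.45 to -0.16 over the samples left out and -0.17 without DMSO replicate 2). MAP2K6 contributed 0.484% ± 0.065 of the summed level per length of MAP2K3 and MAP2K6 in DMSO and 0.144% ± 0.0334 in pladienolide B (SD, n = 3 each). This share also depends on MAP2K3, which was 2.69-fold higher. The level per length of MAP2K6 itself was 0.0426 ± 0.00877 in DMSO and 0.0338 ± 0.00666 in pladienolide B (SD, n = 3 each), with overlapping groups.

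MAP3K8, also known as TPL2 or COT, is a kinase that activates MAP2K1 and MAP2K2 and forms a complex with the NFKB1 protein. It measured 236, 192 and 250 adjusted reads in DMSO and 179, 177 and 181 in pladienolide B. The treated samples were close together and all below the DMSO samples, but DMSO replicate 2 lay near them. The means were 226 ± 30.5 and 179 ± 2.07 (SD, n = 3 each), 79.3% of the DMSO level, with a log2 fold change of -0.32 (SE 0.12), or -0.44 without DMSO replicate 2.

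The order of the levels per length was therefore different in the treatments. With all exonic bases of a gene as its length, in DMSO it ran from DUSP1 (135) to DUSP5 (27.6), DUSP14 (21.4), MAP2K3 (8.73), DUSP16 (2.89), DUSP6 (2.88), MAP3K8 (2.62), DUSP10 (1.86), DUSP4 (0.204) and MAP2K6 (0.0426). DUSP16, DUSP6 and MAP3K8 lay within each other's spread, with SDs of 0.376, 0.341 and 0.355. In pladienolide B the level of DUSP5 was 66.2 and of DUSP6 7.05, above DUSP16 at 3.19, DUSP10 at 2.35 and MAP3K8 at 2.08. MAP2K3 at 23.5 ± 1.22 (SD, n = 3) then lay within the spread of DUSP14 at 25.4 ± 1.65 (SD, n = 3). With the canonical transcript as the length, DUSP14 (35.5) stood above DUSP5 (28.2) in DMSO, DUSP5 (67.7) stood above DUSP14 (42.0) in pladienolide B, and MAP2K3 stood at 14.6 in DMSO and 39.3 in pladienolide B.

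The summed phosphatase family differed between the treatments in its make-up, and less in its total, most of which was DUSP1. The genes of the sums here and below were chosen after their values were seen. Their shares are a description, as DUSP1, DUSP5, DUSP6 and MAP2K3 are among the 10 genes. The summed level per length of the 10 active MAP kinase phosphatases (DUSP1, DUSP2, DUSP4 to DUSP10 and DUSP16) was 190, 181 and 192 in the DMSO samples and 209, 216 and 205 in the pladienolide B samples. The groups lay apart, but the difference was small beside that of single genes. DUSP1 made up 73.5%, 70.0% and 72.2% of this sum in DMSO and 53.3%, 53.6% and 55.0% in pladienolide B. DUSP5 made up 13.5%, 16.2% and 14.5% in DMSO and 32.1%, 32.0% and 30.3% in pladienolide B, and DUSP6 went from a mean of 1.54% ± 0.21 to 3.36% ± 0.219 (SD, n = 3 each). Without DUSP1, the sum of the other 9 was 50.3, 54.2 and 53.2 in DMSO and 97.4, 101 and 92.4 in pladienolide B. The class of nuclear inducible phosphatases (DUSP1, DUSP2, DUSP4 and DUSP5) held nearly the same share of the sum, 87.6% ± 0.277 in DMSO and 86.9% ± 0.197 in pladienolide B (SD, n = 3 each), while within it DUSP1 and DUSP5 differed in opposite directions. The JNK- and p38-selective class (DUSP8, DUSP10 and DUSP16) held 3.47% ± 0.229 and 3.52% ± 0.159 (SD, n = 3 each), and these groups overlapped.

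The make-up also differed among the 7 MAP2K genes, where MAP2K3 was 11.7%, 13.6% and 11.2% of the summed level per length in DMSO and 33.4%, 33.6% and 31.8% in pladienolide B. MAP2K1 and MAP2K2 together, the activators of ERK, had 40.5 ± 0.479 in DMSO and 28.9 ± 0.844 in pladienolide B (SD, n = 3 each). The sum over all 7 was 71.7, 72.7 and 71.3 in DMSO and 73.4, 71.1 and 69.7 in pladienolide B, with overlapping groups. These sums depend on the length used for each gene, because MAP2K1 and MAP2K2 have long exonic annotations beside their canonical transcripts. With the length of the canonical transcript, the mean sums were 195 in DMSO and 171 in pladienolide B, and MAP2K3 was 7.50% and 23.0% of them. MAP2K3 stood above both MAP2K1 (14.9) and MAP2K2 (14.0) in pladienolide B with all exonic bases, whereas with canonical transcripts MAP2K3 (39.3 ± 2.03, SD, n = 3) lay beside MAP2K1 (37.8 ± 0.728, SD, n = 3) and below MAP2K2 (63.0 ± 2.89, SD, n = 3). The phosphatase shares moved little with the length, DUSP1 going from 68.6% to 51.4% and DUSP5 from 14.4% to 30.7% with canonical transcripts.

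**Figure D2:**
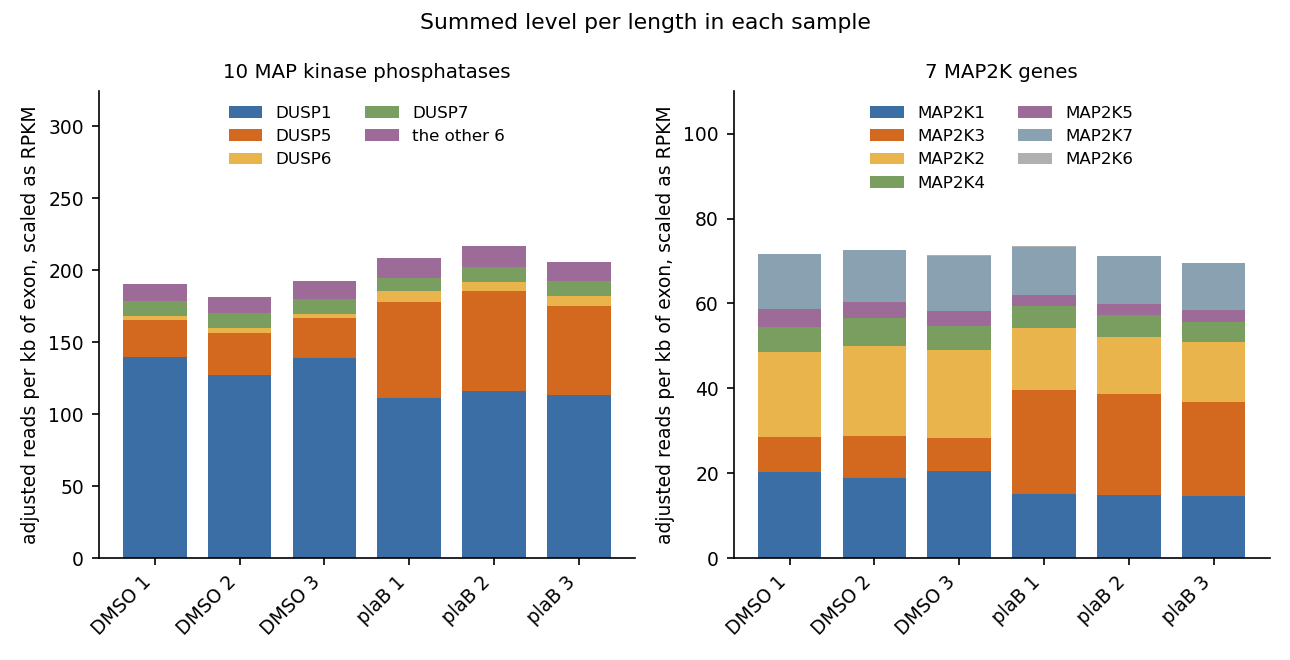
Summed level per length (adjusted reads per kilobase of exon, scaled as in RPKM) of the 10 MAP kinase phosphatases (left) and the 7 MAP2K genes (right) in each of the 6 samples, with plaB for pladienolide B and each gene as a coloured part of the bar. DUSP1 shrinks from 71.9% to 54.0% of the phosphatase sum while DUSP5 grows from 14.7% to 31.5%, and MAP2K3 grows from 12.1% to 32.9% of the MAP2K sum.

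The other genes of the pathway were listed by family, with earlier results of these data known, so their counts are not independent of these samples. They were read from the limma test over all 16178 genes, in which 47.6% had an adjusted p below 0.05, 22.4% higher and 25.2% lower. In the phosphatase family of DUSP1, 1 of the 5 other genes rose and 4 did not pass. DUSP2, another nuclear inducible phosphatase of ERK, rose from 77.8 ± 4.02 to 109 ± 13.1 adjusted reads (SD, n = 3 each; log2 fold change 0.48, SE 0.15, limma, adjusted p = 0.016), but did not pass without DMSO replicate 3 (adjusted p = 0.052) or without pladienolide B replicate 1 (adjusted p = 0.089). The cytoplasmic ERK phosphatases DUSP7 and DUSP9, relatives of DUSP6, had log2 fold changes of -0.10 and -0.04 (limma, adjusted p = 0.20 and 0.79). DUSP8, which acts on JNK and p38, had 0.08, and the inactive family member STYXL1 had -0.23 (limma, adjusted p = 0.55 and 0.081). DUSP6 was the only one of the 3 cytoplasmic ERK phosphatases at least 2-fold higher, with a log2 fold change of 1.29 beside values near 0. This contrast is a description, since DUSP6 was chosen with its change known.

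Among 11 atypical phosphatases, relatives of DUSP14, 3 rose and 2 fell, so that 45.5% were called beside 47.6% of all genes. The largest rises were DUSP12 (log2 fold change 0.64, limma, adjusted p = 1.2e-06) and the pseudophosphatase STYX (0.30, adjusted p = 0.0038), and the falls were DUSP18 (-0.49, adjusted p = 0.0046) and DUSP22 (-0.38, adjusted p = 5.1e-05). Of 7 other phosphatases of MAP kinases, 2 rose and 2 fell by limma, 57.1% called. These were the tyrosine phosphatase PTPN7 (0.53, adjusted p = 0.036), the catalytic subunit PPP2CB (0.21, adjusted p = 0.0022), and the metal-dependent phosphatases PPM1B (-0.26, adjusted p = 0.0018) and PPM1A (-0.13, adjusted p = 0.028). Without the variance trend of limma, PPP2CB (adjusted p = 0.051), PPM1A (adjusted p = 0.077) and PTPN7 (adjusted p = 0.13) did not pass. PTPN7 also did not pass without the filter (limma, adjusted p = 0.055), without DMSO replicate 2 (log2 fold change 0.28, adjusted p = 0.18) or pladienolide B replicate 2 or 3 (adjusted p = 0.16 and 0.070 by limma), nor did PPM1A when any of these 3 samples was left out (limma, adjusted p from 0.050 to 0.11) or with DESeq2 (adjusted p = 0.063).

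MAP2K3 differed in direction from its family: all 5 other tested MAP2K genes outside the 10 fell. By the same test 25.2% of all genes fell. MAP2K1 and MAP2K2 fell from 3142 ± 126 to 2357 ± 45.4 and from 3918 ± 103 to 2667 ± 122 adjusted reads (SD, n = 3 each), with log2 fold changes of -0.41 and -0.56 (limma, adjusted p = 1.3e-06 and 5.0e-08). MAP2K5, the activator of ERK5, fell by 0.52 on the log2 scale (limma, adjusted p = 6.2e-05). The JNK activators MAP2K4 and MAP2K7 fell by 0.27 and 0.18 on the log2 scale (limma, adjusted p = 0.0062 and 0.0064), and MAP2K4 did not pass without the variance trend (adjusted p = 0.053). Its log2 fold change was -0.19 without DMSO replicate 2. The difference in direction between MAP2K3 and these genes is a description, since MAP2K3 was chosen for its change.

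**Figure D3:**
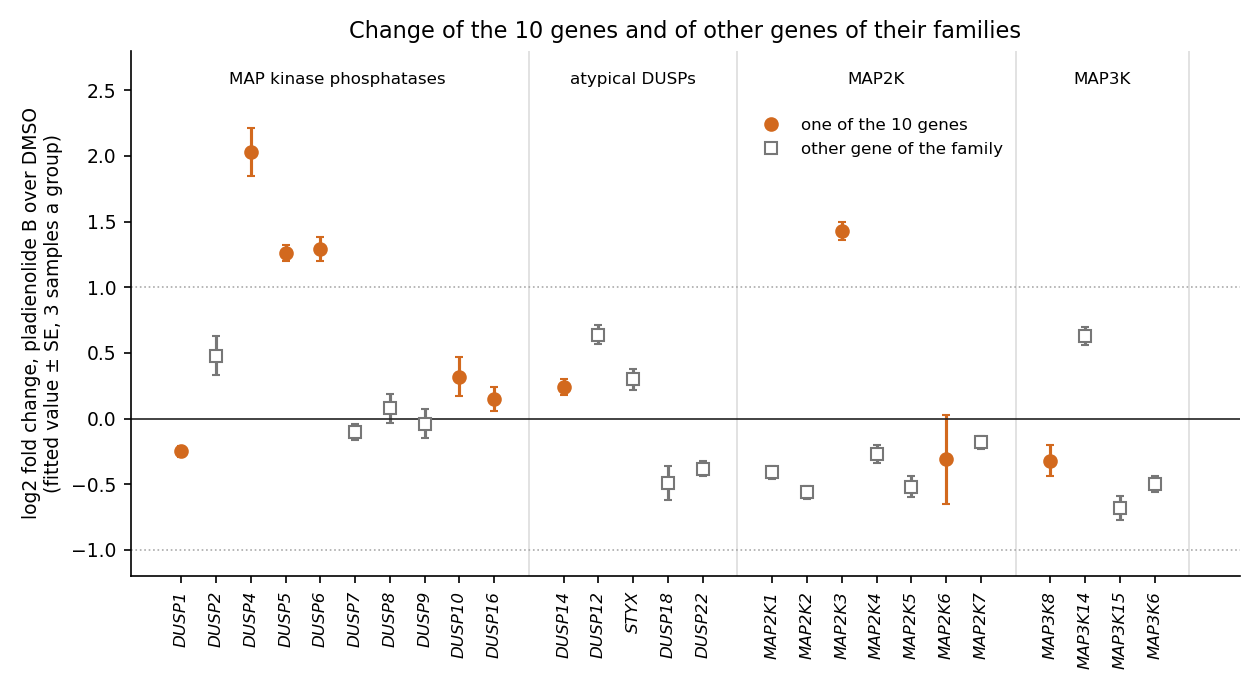
Log2 fold change between pladienolide B and DMSO (fitted value ± SE, 3 samples a group, dotted lines at 2-fold) for the 10 genes (filled circles) and other genes of their families (open squares), with the atypical phosphatases and MAP3K genes limited to some of the largest changes past the threshold. DUSP4, DUSP5, DUSP6 and MAP2K3 are above 1, while the other MAP2K genes lie between -0.56 and -0.18.

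MAP3K8 belongs to a layer in which changes went both ways, as they did over all genes. Of 22 other MAP3K genes tested, 5 rose and 8 fell, none by 2-fold. That is 59.1% called, where 47.6% of all genes were called, 22.4% higher and 25.2% lower. MAP3K14, the NF-kB inducing kinase, rose most (log2 fold change 0.63, limma, adjusted p = 6.6e-07), and MAP3K15 and MAP3K6 fell most (-0.68 and -0.50, limma, adjusted p = 1.2e-05 and 1.6e-06). Of 6 partners of these kinases, which include NFKB1 and TNIP2 of the MAP3K8 complex, only TAB3 passed, with a fall of 0.25 on the log2 scale (limma, adjusted p = 0.0032).

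The listed MAP kinases, not all of them targets of the 10 genes, were called at about the share of all genes, 46.2% beside 47.6%. Their changes were small and in both directions. Of the scaffolds and of the kinases activated by MAP kinases, 54.5% and 55.6% were called. Of 13 MAP kinases, 3 rose and 3 fell, with MAPK8 (JNK1) and MAPK6 (ERK3) up by 0.37 and 0.36 and MAPK9 (JNK2) and MAPK7 (ERK5) at -0.37 and -0.31 on the log2 scale (limma, adjusted p = 5.7e-06, 1.1e-05, 6.8e-06 and 0.0031). Of 11 scaffolds, 6 rose and 0 fell by limma at the adjusted threshold, with the JNK scaffold MAPK8IP2 (0.51, adjusted p = 0.031) and the ERK scaffold subunit LAMTOR1 (0.39, adjusted p = 3.3e-06) rising most. Of 9 kinases activated by MAP kinases, 3 rose, led by MKNK1 (0.29) and MAPKAPK3 (0.29, a substrate of p38), and 2 fell, RPS6KA5 (-0.33) and RPS6KA1 (-0.20) (limma, adjusted p = 6.6e-04, 7.3e-05, 0.029 and 0.0046). MAPK8IP2 did not pass without DMSO replicate 1 or 2 or pladienolide B replicate 1 or 3 (limma, adjusted p from 0.057 to 0.11), without the filter (limma, adjusted p = 0.067) or with DESeq2 (adjusted p = 0.061). RPS6KA5 did not pass without DMSO replicate 2 or 3 or pladienolide B replicate 3 (limma, adjusted p from 0.051 to 0.15), without the variance trend (limma, adjusted p = 0.066) or with DESeq2 (adjusted p = 0.058).

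Among 15 other genes known as transcriptional output of the ERK pathway, the class to which DUSP4, DUSP5 and DUSP6 also belong, 9 rose, 2 fell and 4 did not pass, with a median log2 fold change of 0.38 beside -0.004 for all genes. FOSL1, an AP-1 subunit, rose from 5443 ± 402 to 11208 ± 311 adjusted reads and PHLDA1 from 1547 ± 227 to 3138 ± 111 (SD, n = 3 each), with log2 fold changes of 1.04 and 1.03 (limma, adjusted p = 6.1e-11 and 1.5e-08). Without DMSO replicate 2 these were 1.10 and 0.90, the latter under 2-fold. SPRY1, an inhibitor of receptor tyrosine kinase signalling to ERK, fell from 299 ± 24.0 to 87.0 ± 7.44 (SD, n = 3 each; log2 fold change -1.77, limma, adjusted p = 5.4e-09), and the transcription factor ETV1 fell by 0.27 on the log2 scale (limma, adjusted p = 0.0028). Over all 104 tested genes of the lists outside the 10, 32 rose, 25 fell and 47 did not pass, so that 54.8% were called, where 47.6% of all genes were, and their median log2 fold change was 0.01.

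**Figure D4:**
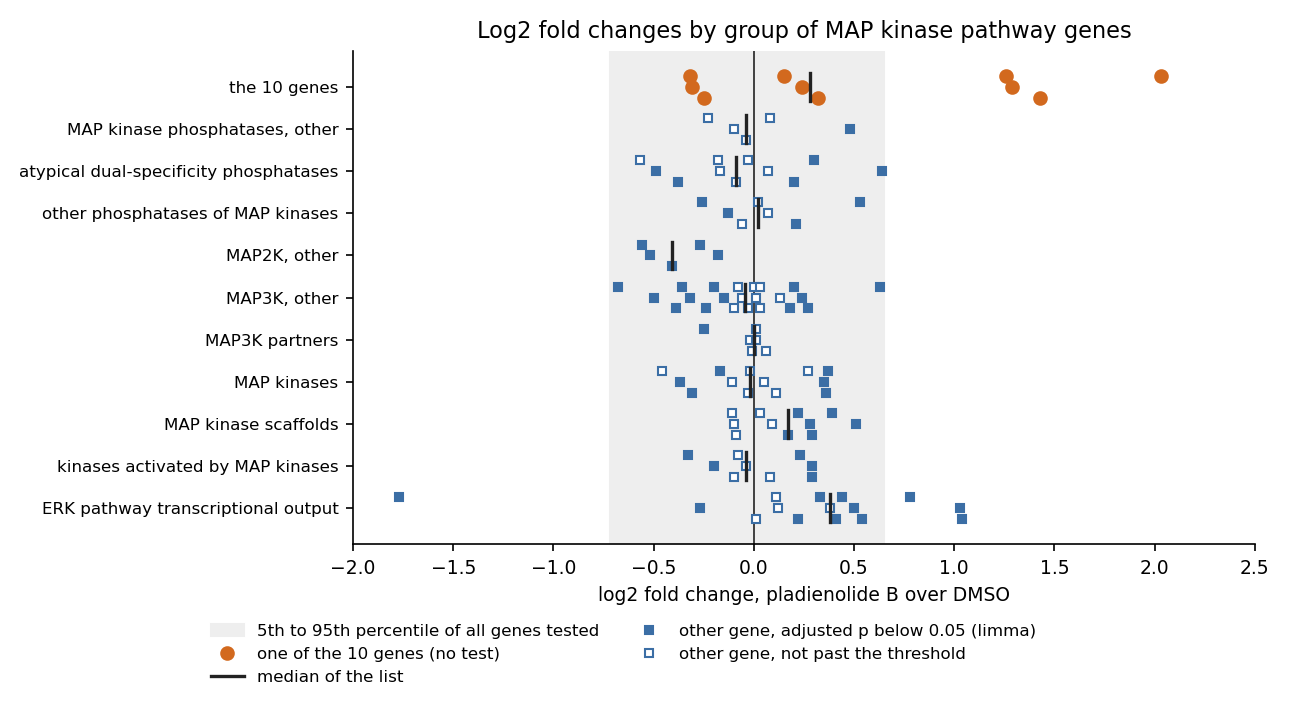
Log2 fold change between pladienolide B and DMSO for the 10 genes (orange, no test) and for 104 other genes of the MAP kinase pathway by group, filled where the adjusted p of limma was below 0.05 and open where it was not, with each group's median as a bar and the 5th to 95th percentile of all genes tested (-0.72 to 0.65) in grey. The MAP2K genes outside the 10 all lie below 0, and the ERK output genes have the highest median of the other groups, 0.38.

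The genes also differ in structure, which the selection did not use. The 4 genes that were at least 2-fold higher have canonical transcripts of 3 to 12 exons and introns that sum to 1.64 kb in DUSP6, 11.2 kb in DUSP5, 12.1 kb in DUSP4 and 28.3 kb in MAP2K3. The gene with the most intronic sequence, MAP2K6 with 126 kb, and DUSP16 with 82.9 kb had overlapping groups. DUSP1, which was lower, has 3 introns that sum to 1.09 kb, the shortest of the 10. The introns sum to 22.1 kb in DUSP14, 24.8 kb in MAP3K8 and 38.1 kb in DUSP10. In GRCh38, DUSP1 lies on chr5:172768096-172771195 and DUSP6 on chr12:89347235-89352501, both on the minus strand, while DUSP5 lies on chr10:110497907-110511533 and MAP2K3 on chr17:21284679-21315240, both on the plus strand. With 10 genes chosen for their change, no relation of structure to change was tested.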

How the data were processed

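RNA was measured in 3 DMSO and 3 pladienolide B samples, grouped by their titles. Per the paper's methods reads were aligned to hg38 with hisat2, while the submitters' processing notes name hg19, HISAT2, HTSeq 0.12.4 and DESeq2. Positions in the table overlapped GRCh38 (GENCODE) for 26990 shared symbols. The authors deposited a signal for each sample, found to be counts adjusted by edgeR's quantile method. Undoing it returned whole reads (tolerance 0.02) for 100% of values from 10 up. The authors' columns of log2 fold change, p-value and q-value were not used.

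Adjusted values were tested as log2(value + 1) with limma 3.58.1 (variance trend, two-sided, Benjamini-Hochberg, adjusted p below 0.05) after filterByExpr of edgeR 4.0.16, in R 4.3.3. Alternatives were other filters and pseudocounts, a replicate block, no trend, edgeR and DESeq2 1.42.0 on recovered reads, and leaving out each sample. Levels per length used all exonic bases in GENCODE, or canonical transcripts, an alternative added after seeing the data. The scripts were tested on simulated data. The genes named are the 10, the other genes of the MAP2K and DUSP1 families, and up to 2 largest rises and falls of each other list past the threshold. A gene that this rule picks is left out of the report. DUSP5P1 and DUSP5-DT, and the genes of the sums, were chosen after their values were seen. The 10 genes and all lists were chosen with earlier results of these data known. DUSP27, 1 of 117 listed genes, was not matched in the table, and 12 others did not pass the filter. Protein sequences were not used here.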

Additional observations from a re-analysis of the deposited data

How the results depend on the processing

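None of the counts below crossed 1.5 times its main value under the alternatives run. Over all genes, 7695 passed in the main test, with 6381 without the variance trend, 6985 with DESeq2 and 6568 to 7836 with 1 sample left out. Among the 104 other genes of the pathway, 57 passed, 47 without the trend, 51 with DESeq2 and 49 to 55 with 1 sample left out. The 4 genes at least 2-fold higher numbered 4 in every alternative, and all 140 alternative fold changes of the 10 genes kept their direction. They also moved by less than the spread between replicates. With 3 samples a group, leaving 1 out cannot move a fold change by more than that spread, so the size of these moves was no check. Of 518 alternative values of other named genes, 25 no longer passed, for DUSP2, PTPN7, PPP2CB, PPM1A, MAP2K4, MAPK8IP2 and RPS6KA5, and 2 reversed, both for DUSP9, which did not pass in any fit: its log2 fold change of -0.04 became 0.03 without DMSO replicate 3 and 0.04 without pladienolide B replicate 3, and ranged from -0.10 to 0.04 with 1 sample left out. The cause was not tested. Same-numbered samples did not deviate together (correlations of -0.085, -0.060 and 0.051 over 13211 genes). With 3 samples a group, these correlations cannot tell whether same-numbered samples were prepared together. With the replicate block, 7349 of all genes and 57 of the other pathway genes passed. DMSO replicate 2 correlated best with pladienolide B replicate 1 (0.14). The planned comparison of protein sequences was not run. Depth limits MAP2K6 most, with 10 to 21 recovered reads a sample.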

Other observations

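By Euclidean distance between centred log2 values over the 6 samples, the genes nearest to DUSP4, whose log2 fold change was the highest of the 10, were LAMA4, a laminin chain (distance 0.208, mean adjusted reads 4.83 in DMSO and 21.4 in pladienolide B), GUCA1B, a calcium-binding activator of guanylate cyclase (0.247, 23.5 and 92.9) and the noncoding RNA LINC00520 (0.333, 12.9 and 57.0). The genes nearest to MAP3K8, whose log2 fold change was the lowest of the 10, were HMBOX1, a homeobox gene (0.0961, 1040 and 822), FAM219A (0.0972, 829 and 664) and SRGAP2C (0.0990, 817 and 638). SRGAP2C is a near copy of SRGAP2, and its reads could be split between the copies. With 3 samples a group, nearness by this measure largely reflects a similar log2 fold change. The 3 genes near DUSP4 had 1.96, 1.95 and 2.07 beside its 2.03, and those near MAP3K8 had -0.33, -0.31 and -0.35 beside its -0.32. LAMA4 had fewer than 10 mean adjusted reads in DMSO, so its distance rests on few reads.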
